A study of Mus musculus with 9 samples.

Results

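CpG methylation was described across the 3 immunoglobulin loci of sorted mouse spleen cells: the heavy chain locus Igh, the kappa light chain locus Igk and the lambda light chain locus Igl. All CpGs of the deposited table that lay within fixed bounds of build mm9 were taken, with no use of their measured values: chromosome 12 from 114400000 to 117300000 for Igh, chromosome 6 from 67500000 to 70700000 for Igk, and chromosome 16 from 19000000 to 19270000 for Igl. These bounds held 229 CpGs in Igh, 250 in Igk and 51 in Igl, together 530 of the 911004 CpGs in the table. The 9 libraries were made by reduced representation bisulfite sequencing, which cuts DNA with the enzyme MspI, reads short stretches beside its CCGG sites, and tells methylated from unmethylated cytosines by bisulfite treatment. Plasma cells (B220low CD138+, 3 libraries) and plasmablasts (B220mid CD138+, 3 libraries) were sorted from spleen 3 days after lipopolysaccharide (LPS), a bacterial product that drives B cells to divide and secrete antibody. Naive B cells (B220+ CD43-, 3 libraries) came from untreated animals. All mice were female C57Bl/6J aged 10 weeks.

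An antibody is built from 2 kinds of chain, and each chain gene is assembled during B cell development by joining separate variable (V), joining (J) and, in the heavy chain, diversity (D) segments beside a constant (C) region. The joining removes the DNA between the chosen segments or turns it round, so mature B cells carry rearranged loci that differ from cell to cell. Plasma cells transcribe the assembled genes at very high rates. Enhancers that drive this transcription are known in mouse within the J to C introns of Igh and Igk and downstream of the last C region of each. A methylation level measured on a sorted population is an average over cells, both alleles, and rearranged and unrearranged copies, and the share of each copy was not measured. The deposited annotation names none of the V, D, J or C segments, and the enhancers are not marked in it.

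The deposited table gave a closest gene or transcript for each CpG, and by these the loci could be laid out. In Igh, 203 of the 229 CpGs were classed as intergenic, 12 as exonic, 7 as intronic and 7 as promoter. In Igk, 164 of the 250 CpGs were intronic and 86 intergenic, the introns being those of transcripts that span many V segments. In Igl all 51 CpGs were intergenic. A closest gene symbol was missing for 145 CpGs in Igh, 138 in Igk and 46 in Igl. The named neighbours were 4930427A07Rik, Tmem121, Adam6b, Adam6a and Zfp386 at Igh, 4930515G16Rik and Rprl1 at Igk, and Hira at Igl. In the gene order of RefSeq's GRCm38.p6 table, Tmem121 lies beyond the constant gene Igha, Adam6b and Adam6a lie at the D segments and Zfp386 lies beyond the V segments. At Igk, 4930515G16Rik lies at the V end, and the 5 J segments and Igkc lie at the other end. Tmem121 encodes a membrane protein, Adam6a and Adam6b encode sperm proteins needed for male fertility, and Hira encodes a histone chaperone.

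The assay reads beside CCGG sites, and the promoters of Tmem121 and Adam6b differ in how many they hold. They are given 5′ to 3′ on the + strand, from 250 bases before to 50 after the gene start, from RefSeq with build GRCm38.p6, with every CCGG in capitals.
Tmem121 (chr12:113185653-113185952): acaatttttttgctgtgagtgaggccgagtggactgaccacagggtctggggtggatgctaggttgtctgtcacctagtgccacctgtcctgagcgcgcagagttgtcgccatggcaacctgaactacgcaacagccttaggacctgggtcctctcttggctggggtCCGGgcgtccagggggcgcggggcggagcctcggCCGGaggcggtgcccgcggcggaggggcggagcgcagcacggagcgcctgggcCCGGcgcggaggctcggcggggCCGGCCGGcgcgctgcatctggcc
Adam6b (chr12:113489315-113489614): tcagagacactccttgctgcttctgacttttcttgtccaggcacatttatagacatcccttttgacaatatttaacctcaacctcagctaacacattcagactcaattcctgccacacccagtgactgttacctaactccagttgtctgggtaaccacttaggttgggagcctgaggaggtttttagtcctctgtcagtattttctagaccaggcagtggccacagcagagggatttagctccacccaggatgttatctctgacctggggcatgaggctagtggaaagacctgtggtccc
The Tmem121 window held 5 CCGG motifs and 29 CpGs, and the Adam6b window held neither. CCGG reads the same on both strands, and 52.8% of the 32851 promoters in the table held at least 1. In the deposited data no CpG of the region lay closer than 1521 bp to the Tmem121 start or 813 bp to the Adam6b start. The CpGs classed as promoter were 2 for Tmem121 and 5 for Adam6b. The CpGs read near each start thus did not follow the CCGG counts of these windows.

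Read totals over CpGs ran from 23168926 to 26202053 in plasma cells, from 17366816 to 19304010 in plasmablasts and from 16037172 to 29948088 in naive B cells. In these and all later sums over CpGs, a read is counted at each CpG it covers, so the molecules read are fewer. Naive B cells 2 and 3 lacked reads at 69627 and 82986 CpGs of the table, against 119 to 4628 in the other 7 libraries. Methylation over 18 mitochondrial CpGs, which should be near 0, was 0.896% to 1.05% in plasma cells, 2.77% to 7.18% in plasmablasts, and 0.332% in naive B cells 1 against 3.89% and 3.34% in naive B cells 2 and 3. Plasma cells and plasmablasts thus fell on different sides of 2%, and naive B cells on both, so values within each of these library sets are given beside the first comparison. Pooled over a group, a CpG of the loci had a median of 62, 54 and 83 reads in plasma cells for Igh, Igk and Igl, 41, 42 and 62 reads in plasmablasts, and 48, 50.5 and 53 reads in naive B cells.

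Over all 530 CpGs the loci were largely methylated in naive B cells and lower in both LPS-induced groups. A level of 80% or more was found in plasma cells at 108 of 229 Igh CpGs, 143 of 250 Igk CpGs and 38 of 51 Igl CpGs. In plasmablasts it was found at 138, 168 and 41 of them. In naive B cells it was found at 192, 225 and 47 of them, or 83.8%, 90.0% and 92.2%, against 54.0% of the whole table. The pooled level was lower in plasma cells than in naive B cells at 213 Igh CpGs, 226 Igk CpGs and 42 Igl CpGs (93.0%, 90.4% and 82.4%, against 77.0% of the table). It was lower in plasmablasts than in naive B cells at 191, 215 and 36 of them (83.4%, 86.0% and 70.6%, against 64.1%). The median difference between plasma cells and naive B cells was -12.3 percentage points in Igh, -12.5 in Igk and -5.49 in Igl, against -7.70 over the table.

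At 146 of the 530 CpGs every library had at least 10 reads: 61 in Igh, 66 in Igk and 19 in Igl. The mean level of the 66 Igk CpGs was 80.1%, 77.7% and 76.4% in plasma cells. It was 82.7%, 82.7% and 83.0% in plasmablasts, and 95.3%, 96.6% and 97.2% in naive B cells. No library of one group overlapped those of another. The 61 Igh CpGs averaged 68.5 ± 1.73% in plasma cells, 72.5 ± 1.18% in plasmablasts and 83.6 ± 0.954% in naive B cells (SD, n = 3 each), again without overlap. The 19 Igl CpGs averaged 83.4 ± 4.57% in plasma cells, 88.4 ± 1.77% in plasmablasts and 93.9 ± 3.11% in naive B cells (SD, n = 3 each), and here plasma cells and plasmablasts overlapped, while the highest plasmablast library and the lowest naive one were both at 90.3%. In 8 of the 9 comparisons the exact two-sided permutation p was 0.1, the smallest that 3 against 3 libraries can give, and it was 0.1125 when adjusted over the 9. For plasma cells against plasmablasts in Igl it was 0.2. No label ties a library to an animal, so no p-value here can be read as spread between animals. The permutation p-values reflect the spread between libraries alone, which may be technical.

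Plasma cells against naive B cells 1, the libraries with low mitochondrial methylation, differed by -14.0 points in Igh, -17.2 in Igk and -6.97 in Igl, beside -15.1, -18.3 and -10.5 with all libraries. Plasmablasts against naive B cells 2 and 3, the libraries with high mitochondrial methylation, differed by -11.6 points in Igh, -14.1 in Igk and -7.32 in Igl, beside -11.1, -13.6 and -5.54 with all libraries. Plasma cells minus plasmablasts gave -4.05 points in Igh, -4.71 in Igk and -5.00 in Igl, and this difference cannot be told apart from that between the library sets. The Igl value was -7.30 without plasma cells 1 and -2.73 without plasma cells 2.

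**Figure D1:**
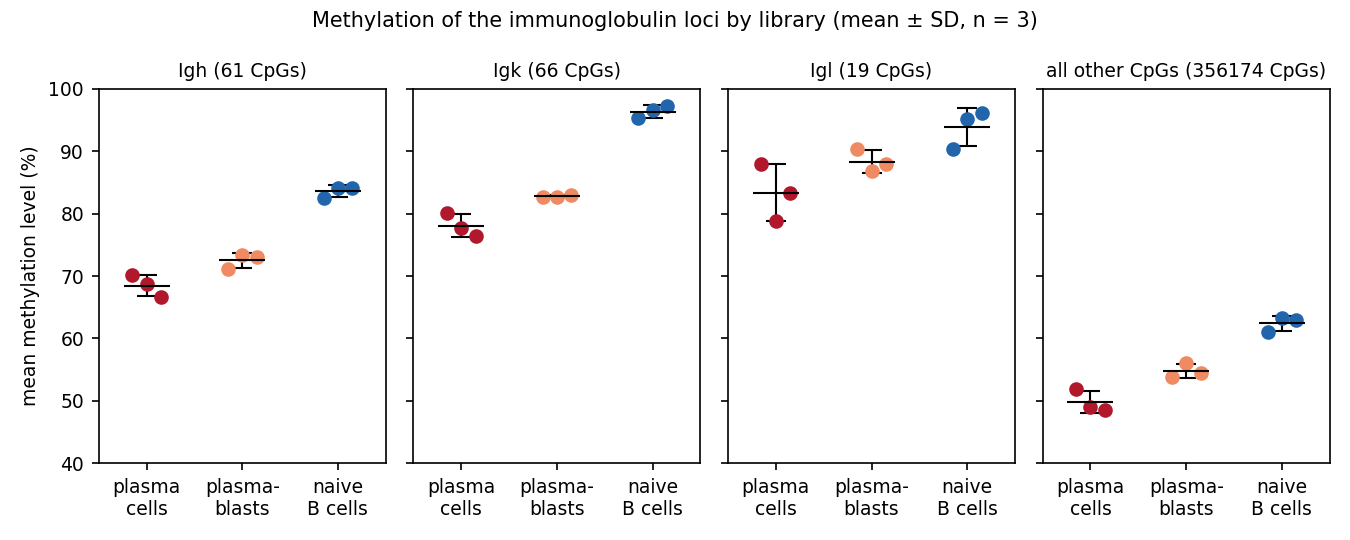
Mean methylation level (%) of the CpGs with at least 10 reads in every library, in Igh, Igk, Igl and all other such CpGs, for plasma cells, plasmablasts and naive B cells. Points are libraries, and lines and bars are the mean ± SD of 3; in Igk the plasma cell libraries lie between 76.4% and 80.1% and the naive B cell libraries between 95.3% and 97.2%.

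The loci were then set against the 356174 other CpGs with this depth. These averaged 49.8% in plasma cells, 54.8% in plasmablasts and 62.4% in naive B cells, so the immunoglobulin loci stood above them in every group. Relative to these other CpGs, the difference between plasma cells and naive B cells was -2.52 points in Igh and -5.70 in Igk, that is, a larger loss (exact permutation p = 0.1 in both). In Igl it was 2.07 points (exact permutation p = 0.4), with 0.771 without plasma cells 1, 0.991 without naive B cells 1 and 3.96 without plasma cells 2. For plasmablasts against naive B cells these values were -3.46 in Igh and -5.97 in Igk (exact permutation p = 0.1 in both) and 2.08 in Igl (exact permutation p = 0.4), the last with 0.637 without plasmablasts 1, 1.00 without naive B cells 1 and 3.50 without plasmablasts 2. The 9 comparisons of this kind gave adjusted p-values of 0.225 or more.

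The loci start at a higher level than most CpGs, and the comparison was repeated, after the data had been seen, over those CpGs alone whose naive level was at least 80%. The difference between plasma cells and naive B cells relative to other such CpGs was then 1.06 points in Igh, -0.856 in Igk and 8.57 in Igl (exact permutation p = 0.1, 0.2 and 0.1). For plasmablasts against naive B cells it was -0.243 in Igh, -1.09 in Igk and 7.65 in Igl (exact permutation p = 0.9, 0.1 and 0.1). No p below 0.1 is possible with 3 against 3 libraries, these p-values were not adjusted, and the CpGs were kept for a high level in the same naive libraries from which the loss is measured, so the values are a description. With only intergenic CpGs as the rest, the values for plasma cells against naive B cells were 1.31 in Igh, -1.86 in Igk and 5.90 in Igl, and those for plasmablasts were -0.221, -2.73 and 5.32.

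A single CpG was called where a quasi-binomial model (a binomial model of methylated and unmethylated reads with extra spread between libraries) gave an adjusted p under 0.01 and the difference was at least 20 points. The extra spread was 1 value, 1.35, shared by all CpGs. Such a p therefore reflects read counts and not a CpG's own spread between libraries. In plasma cells against naive B cells, 18 of 61 tested CpGs in Igh (29.5%), 25 of 66 in Igk (37.9%) and 2 of 19 in Igl (10.5%) were lower, against 22.2% of all 356320 tested CpGs. In plasmablasts against naive B cells, 9 in Igh (14.8%), 13 in Igk (19.7%) and 0 in Igl were lower, against 10.1%. Among the tested CpGs with a naive level of 80% or higher the counts for plasma cells were 16 of 51 in Igh (31.4%), 25 of 65 in Igk (38.5%) and 2 of 17 in Igl (11.8%), against 32.8% of all such CpGs. For plasmablasts they were 9 of 51 (17.6%), 13 of 65 (20.0%) and 0 of 17, against 15.7%. The shares in Igh and Igk were thus near the background once the starting level was matched, and Igl lay below it. With the library set as a term in the model, the calls in plasma cells were 8 in Igh and 13 in Igk, and the share of all tested CpGs under that setting is not given here. No CpG of the loci was called higher in any comparison (0.0407% of all tested CpGs were higher in plasma cells and 0.057% in plasmablasts than in naive B cells).

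For Igl in plasmablasts, where the quasi-binomial model and limma both called 0 CpGs, 6 of 19 had an unadjusted p under 0.05. Between plasma cells and plasmablasts neither method called a CpG in the 3 loci. Of all tested CpGs the quasi-binomial model called 0.424% lower and 0.000561% higher (0.441% lower among those starting at 80% or higher). In the loci 7 of 61, 8 of 66 and 1 of 19 had an unadjusted p under 0.05 in that model. The share of all tested CpGs at an unadjusted p under 0.05 is not given here, so the unadjusted counts cannot be read as an excess. All 3 plasma cell libraries lay below all 3 naive B cell libraries at 38 Igh CpGs (62.3%), 54 Igk CpGs (81.8%) and 7 Igl CpGs (36.8%), against 49.1% of all tested CpGs. All 3 plasmablast libraries lay below the naive ones at 35, 41 and 6 CpGs (57.4%, 62.1% and 31.6%), against 38.6%. The opposite order, with every LPS-induced library above every naive one, was seen at 0 CpGs of the loci in either comparison.

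**Figure D2:**
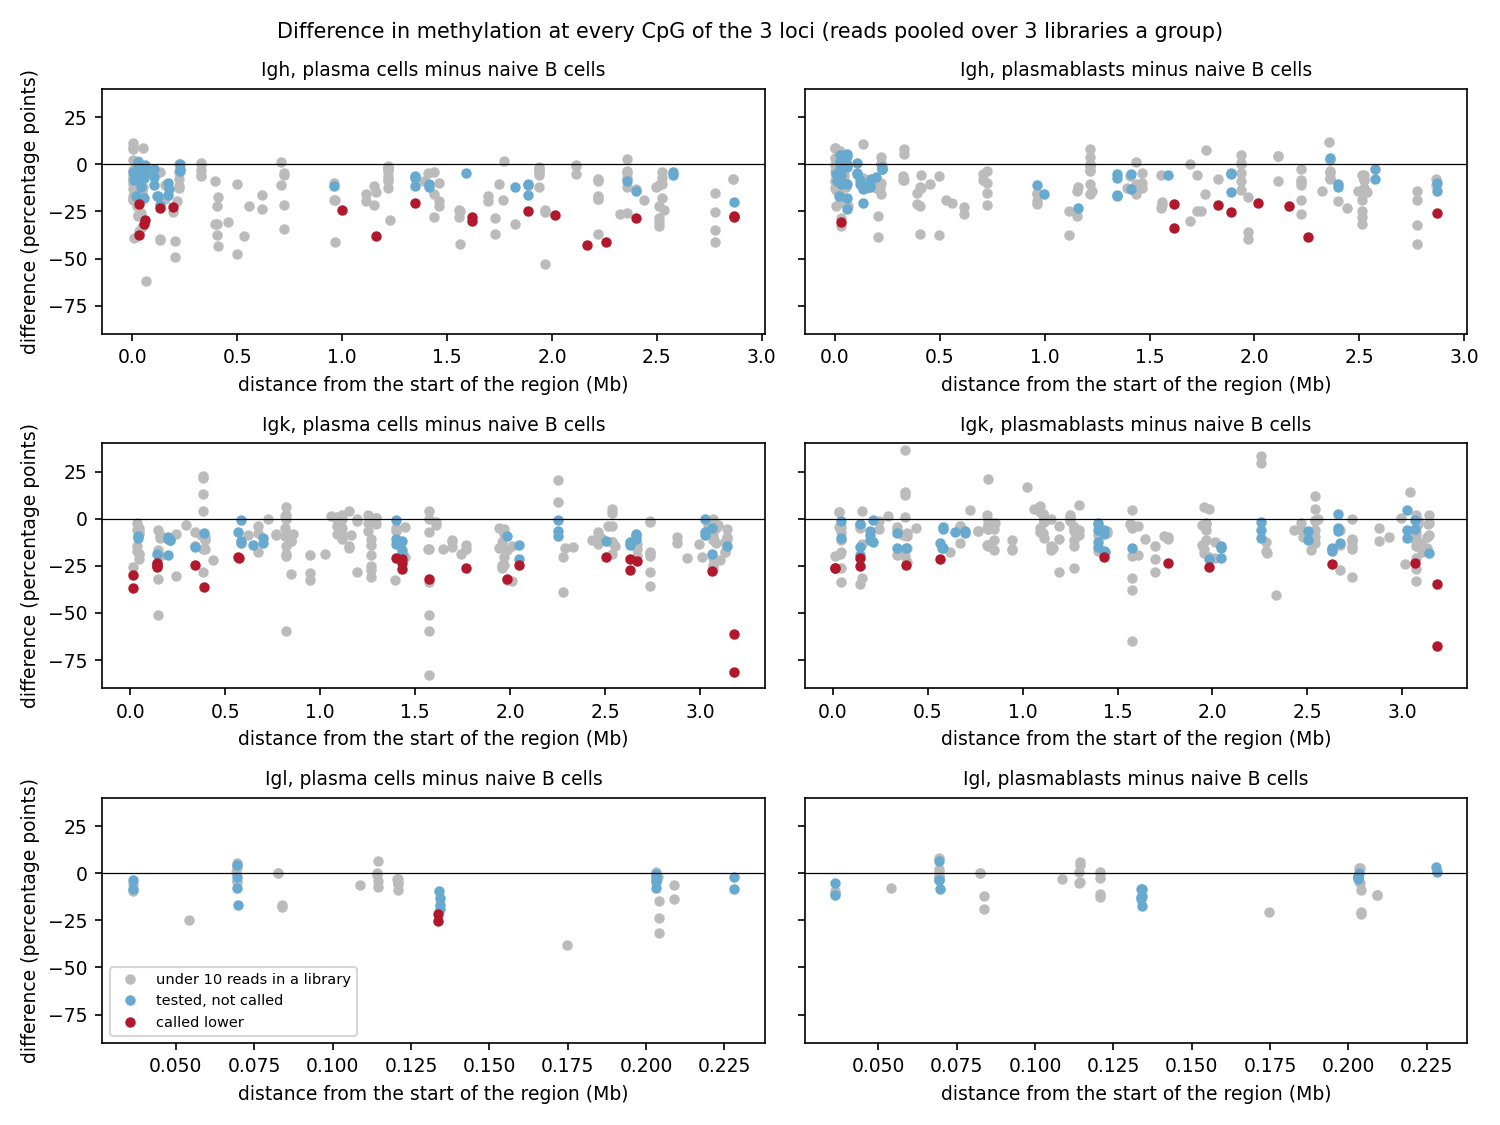
Difference in pooled methylation level (percentage points) at each of the 530 CpGs against distance from the start of the region (Mb), for plasma cells minus naive B cells (left) and plasmablasts minus naive B cells (right) in Igh, Igk and Igl. Red points were called lower, blue ones tested and not called, and grey ones had under 10 reads in some library; most points lie below 0 along the whole of each locus, and the lowest called point, at -81.3, is at the right end of Igk.

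The Igk locus held the largest difference among the tested CpGs of the 3 loci. The CpG at chromosome 6, position 70681944, an intergenic CpG 5196 bp past the end of an unnamed + strand transcript (70668896 to 70676748) at the J and C end, had a level of 12.1%, 0% and 11.6% in plasma cells on 33, 27 and 43 reads. The 0 of 27 reads allows a level of up to 11.1%, which like other limits from reads covers counting error only. Plasmablasts had 23.3%, 21.4% and 23.8% on 30, 42 and 42 reads, and naive B cells had 86.5%, 86.5% and 96.2% on 37, 52 and 52 reads. The 3 groups were apart, with the plasmablasts much nearer to the plasma cells. The pooled difference was -81.3 points for plasma cells (adjusted p = 2.83e-28, quasi-binomial model) and -67.3 points for plasmablasts (adjusted p = 1.91e-19) against naive B cells. A fall this large or larger was seen at 251 of the 356320 tested CpGs in plasma cells (0.0704%) and at 310 in plasmablasts (0.087%).

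Its neighbour at 70681698, 4950 bp past the same transcript, had 39.1%, 21.1% and 36.1% in plasma cells, 56.0%, 64.0% and 60.6% in plasmablasts, and 90.6%, 95.5% and 97.1% in naive B cells, on 19 to 44 reads. Here the plasmablasts stood about midway. The differences from naive B cells were -61.3 points in plasma cells (adjusted p = 1.40e-13) and -34.4 points in plasmablasts (adjusted p = 9.87e-06), and both CpGs also stand in the authors' deposited tables of differential CpGs for both comparisons. Plasma cells minus plasmablasts gave -26.9 points at 70681698 and -14.1 at 70681944, not called at adjusted p-values of 0.0820 and 0.165. Both CpGs kept their call against naive B cells in every alternative in which they could be tested. In mouse an enhancer of Igk is known downstream of Igkc, and the deposited annotation does not mark it.

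**Figure D3:**
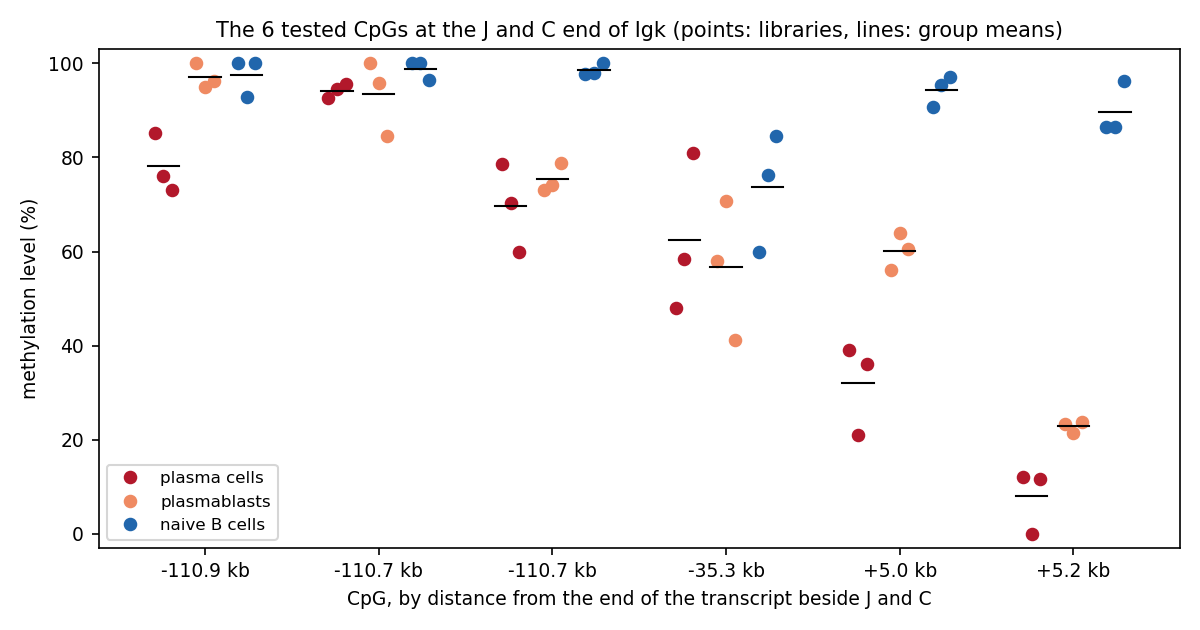
Methylation level (%) in each library at the 6 tested CpGs assigned to the unnamed transcript at the J and C end of Igk, for plasma cells, plasmablasts and naive B cells. The CpGs are ordered by distance (kb) from the end of that transcript, and those not past it lie before its start, on the side of the V segments. Points are libraries and lines are group means; at the 2 CpGs past the transcript the plasma cell libraries lie at 39.1% or below and the naive ones at 86.5% or above.

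The loss at this end was uneven. The 27 CpGs assigned to the unnamed transcript, called the J and C end here, ran from 70541369 to 70681944. Only 70681698 and 70681944 lay past the transcript. The others lay before its start, up to 127526 bp away on the side of the V segments, so the stretch reaches well beyond J and C. The 27 included 6 tested ones, whose mean was 57.4 ± 3.50% in plasma cells, 67.6 ± 3.09% in plasmablasts and 92.1 ± 3.34% in naive B cells (SD, n = 3 each). Without the CpGs at 70681698 and 70681944 the other 4 averaged 76.1 ± 1.32% in plasma cells, 80.6 ± 4.75% in plasmablasts and 92.2 ± 2.95% in naive B cells. At 70566042 the plasma cell libraries had 92.6% to 95.7%, the plasmablast libraries 84.6% to 100% and the naive libraries 96.6% to 100%, while at 70566073 nearby they had 60.0% to 78.6% in plasma cells, 73.0% to 78.8% in plasmablasts and 97.7% to 100% in naive B cells. Neighbouring CpGs therefore differed in their loss. Leaving the 2 CpGs out also changed the value for the whole of Igk relative to other CpGs, to -4.02 for plasma cells and -4.82 for plasmablasts against naive B cells.

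In the V part of Igk, 183 CpGs were listed and 44 tested. The tested ones averaged 80.9 ± 3.07% in plasma cells, 84.3 ± 0.756% in plasmablasts and 96.6 ± 0.999% in naive B cells (SD, n = 3 each). Of them, 15 were called lower in plasma cells and 6 in plasmablasts. The 40 CpGs assigned to 4930515G16Rik, a gene of unassigned function, lay 1715 to 323615 bp from its start. They are not counted in the V part above, though V segments lie on both sides of that gene in the RefSeq order. Of the 40, 16 were tested, with means of 78.0 ± 2.36% in plasma cells, 84.4 ± 3.18% in plasmablasts and 97.4 ± 1.17% in naive B cells. Of these 16, 7 were called in plasma cells and 4 in plasmablasts. The CpG at 67513761, 1931 bp from the start of that gene, had 61.1%, 50.0% and 50.9% in plasma cells, 78.9%, 59.3% and 58.3% in plasmablasts, and 86.9%, 92.7% and 96.6% in naive B cells (differences of -36.9 points in plasma cells and -26.0 in plasmablasts, adjusted p = 1.91e-07 and 1.74e-04). Both LPS-induced groups lay below the naive one without overlap. Among the 72 CpGs assigned to Rprl1, an RNA gene, 22 were tested, 7 called in plasma cells and 3 in plasmablasts. Of the 72, 41 were assigned to a long annotated span of the gene (67892068 to 70408032) that covers most V segments. The other 31 were assigned to a short span (69276677 to 69277511) and lay 10759 to 555608 bp from its start.

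The other Igk CpGs among the 10 with the largest differences were 67886400 and 67513977 near the V end, 68931078, 69074698, 69481845 and 70129931 among the V segments, and 70566073. All fell in plasma cells, by 26.9 to 36.2 points. In plasmablasts 67886400, 67513977 and 70566073 also passed the threshold, with -24.6, -26.2 and -23.4 points. At 67886400 the plasmablast libraries had 61.5%, 96.0% and 61.5% and the naive ones 97.9%, 100% and 91.7%, so that 1 plasmablast library lay among the naive ones, and the plasmablast call was lost in 5 of 14 alternatives, with -13.2 points without plasmablasts 3.

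A stretch of 4 CpGs that were too shallow in naive B cells to be tested stood out after the values were seen. At 69074829, 69074841, 69074853 and 69074856 in the V part, pooled levels were 66.7%, 40.3%, 41.3% and 17.1% in plasma cells on 75 to 78 reads. In plasmablasts they were 80%, 68.3%, 54.2% and 35.0% on 59 or 60 reads, and in naive B cells 100%, 100%, 92.2% and 100% on 51 to 53 reads, most of them from naive B cells 1. The last of these differed by -82.9 points between plasma cells and naive B cells, more than any tested CpG of the locus. The tested CpG at 69074698, just before them, had 65.8%, 61.3% and 69.0% in plasma cells, 83.3%, 91.7% and 73.5% in plasmablasts, and 98.2%, 92.9% and 100% in naive B cells. It fell by 31.9 points in plasma cells (adjusted p = 8.90e-07), and its plasmablast value, -15.5 points, was under the 20 points required.

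Some Igk CpGs went the other way without passing a test. At 67881599, 67881603 and 67881610, pooled levels were 12.9, 21.6 and 22.8 points higher in plasma cells than in naive B cells, on 25 reads in plasma cells and 33 or 34 in naive B cells. Library values overlapped between these groups at the first 2 and not at 67881610, with 58.3% to 71.4% in plasma cells and 12.5% to 56.2% in naive B cells. At 69753160 the pooled level was 20.8 points higher, with naive B cells 2 and 3 at 1 read each. These CpGs lay under the depth required for a test.

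Levels in Igh differed along its length. The 19 CpGs assigned to 4930427A07Rik, at the edge of the region, had a median pooled level of 89.5% in plasma cells, 90.9% in plasmablasts and 96.2% in naive B cells, and neither of the 2 tested was called. The 45 assigned to Tmem121 had 76.3% in plasma cells, 81.0% in plasmablasts and 95.3% in naive B cells, with 4 of 17 tested called in plasma cells and 1 in plasmablasts. At its constant end, the 7 tested CpGs of the stretch that holds Tmem121 averaged 39.6 ± 1.42% in plasma cells, 40.6 ± 4.88% in plasmablasts and 45.1 ± 2.66% in naive B cells (SD, n = 3 each), and none was called. Of these 7, 4 belong to a run of 10 CpGs at 114425810 to 114426207 that begins in an intron of Tmem121. Its first 6 CpGs had pooled levels of 0% to 4.76% in plasma cells, 1.01% to 9.76% in plasmablasts and 0% to 9.41% in naive B cells. In the 4 tested ones, a library at 0% had 20 to 76 reads, which allows a level of up to 3.95% to 15%. The last 4, side by side in an exon, had 35.6% to 50.5% in plasma cells, 45.5% to 68.2% in plasmablasts and 58.0% to 78.0% in naive B cells, on 45 to 91 reads in plasma cells, 10 to 22 in plasmablasts and 16 to 50 in naive B cells. An edge between an unmethylated and a partly methylated stretch thus lay within this run in all 3 groups.

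Between Tmem121 and the constant genes the 12 tested CpGs averaged 52.7 ± 3.05% in plasma cells, 58.1 ± 4.60% in plasmablasts and 67.3 ± 0.197% in naive B cells (SD, n = 3 each). In mouse the regulatory region downstream of Igha, which acts on transcription and class switching, lies between Igha and Tmem121, but the files do not mark it. At 114428982, the last CpG of a run of 7, levels were 58.8%, 64.7% and 59.4% in plasma cells, 68.4%, 71.4% and 64.0% in plasmablasts, and 100%, 95.0% and 100% in naive B cells. Both LPS-induced groups lay below the naive one, with differences of -37.7 and -30.4 points (adjusted p = 1.59e-07 and 3.82e-05). At 114455513 levels were 11.5%, 9.09% and 8.70% in plasma cells, 16.7%, 27.0% and 6.90% in plasmablasts, and 43.8%, 43.2% and 38.7% in naive B cells. This CpG, already below 50% in naive B cells, fell by 31.8 points in plasma cells (adjusted p = 4.01e-04), and its plasmablast difference of -24.0 points had an adjusted p of 0.0112. At 114457959 the difference was -29.6 points in plasma cells (adjusted p = 3.85e-04). Of the 12 CpGs, 4 were called lower in plasma cells and 1 in plasmablasts.

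The 14 tested CpGs among the Igh constant genes averaged 79.9 ± 1.81% in plasma cells, 84.4 ± 1.33% in plasmablasts and 92.1 ± 1.55% in naive B cells (SD, n = 3 each). Only 2 were called in plasma cells and none in plasmablasts. The largest pooled difference there was untested: at 114603533, 1094 bp from the start of an unnamed transcript, levels were 36.6%, 37.0% and 44.2% in plasma cells on 41 to 52 reads. Plasmablasts had 66.7%, 0% and 54.2% on 21, 9 and 24 reads, and naive B cells had 85.4%, 100% and 100% on 41, 3 and 9 reads. The plasmablast libraries were scattered, and the naive values of 100% rest on few reads.

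Around Adam6b and Adam6a, 17 CpGs were listed and none had the depth to be tested. The 12 CpGs assigned to Adam6a, at 114793342 to 114956957, lie 11222 to 174837 bp from its start. They are past its end on the side of the V segments, but are not counted in the V part below. Their median pooled level was 65.7% in plasma cells, 77.5% in plasmablasts and 96.2% in naive B cells, and all 12 were lower in each LPS-induced group. The 5 CpGs in the Adam6b promoter had a median of 83.3% in all 3 groups, and 3 of 5 were lower in plasma cells. Over 4 of these 5, naive B cells 1, 2 and 3 had 45, 7 and 0 reads, so the naive level there rests mostly on naive B cells 1. The medians of both sets rest on 516 reads in plasma cells, 422 in plasmablasts and 516 in naive B cells, summed over the 17 CpGs.

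The V part of Igh, without the CpGs assigned to Adam6a, held 116 CpGs, of which 25 were tested. These averaged 77.1 ± 1.30% in plasma cells, 80.7 ± 1.39% in plasmablasts and 95.7 ± 1.61% in naive B cells (SD, n = 3 each). Of the 25, 10 were called lower in plasma cells and 7 in plasmablasts, beside 2 and 0 of 14 at the constant genes. Over all tested CpGs 22.2% were called in plasma cells and 10.1% in plasmablasts (32.8% and 15.7% of those starting at 80% or higher), and the difference between the 2 parts was not tested. At 116656666 levels were 57.1%, 60.0% and 50.0% in plasma cells, 54.2%, 63.2% and 53.6% in plasmablasts, and 88.9%, 100% and 97.1% in naive B cells. Plasma cells and plasmablasts overlapped there, and both fell, with differences of -41.4 and -38.7 points (adjusted p = 8.42e-09 and 1.59e-07).

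At 116565024 the plasmablasts lay between the other groups, with 65.4%, 54.2% and 44.4% in plasma cells, 79.2%, 72.4% and 75.0% in plasmablasts, and 100%, 97.7% and 95.0% in naive B cells. The differences were -43.0 points in plasma cells and -22.2 in plasmablasts (adjusted p = 1.17e-07 and 0.00179), and the plasmablast call was lost without naive B cells 2 or plasmablasts 2. At the neighbouring CpGs 116016321 and 116016371 the differences were -27.8 and -30.1 points in plasma cells and -33.7 and -21.2 points in plasmablasts, all called, the last not without plasmablasts 2 or 3. The plasma cell minus plasmablast value was 5.86 points at the first and -8.88 at the second, neither called. At 115560765 and 116799325 plasma cells fell by 38.1 and 28.3 points, and the plasmablast values of -23.0 and -12.1 points were not called, the second being -23.0 and called without naive B cells 1. Beside Zfp386, a zinc finger gene, all 3 CpGs were tested. They averaged 74.1 ± 8.77% in plasma cells, 81.3 ± 3.99% in plasmablasts and 98.3 ± 0.646% in naive B cells, and 2 were called in plasma cells and 1 in plasmablasts, among them 117270003 with -27.9 points in plasma cells (adjusted p = 6.11e-07). That difference was -16.5 points without plasma cells 3, under the 20 points of a call.

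Not all of the V part was methylated. A run of 9 CpGs at 115617140 to 115617323 had mean pooled levels of 3.80% in plasma cells, 6.50% in plasmablasts and 8.90% in naive B cells. Summed over its CpGs there were 736, 244 and 288 reads. No gene symbol was assigned to it. Counting this run and the Tmem121 CpGs above, 21 of 229 CpGs in Igh, 2 of 250 in Igk and 0 of 51 in Igl were under 20% in naive B cells, against 321938 of 911004 in the whole table.

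**Figure D4:**
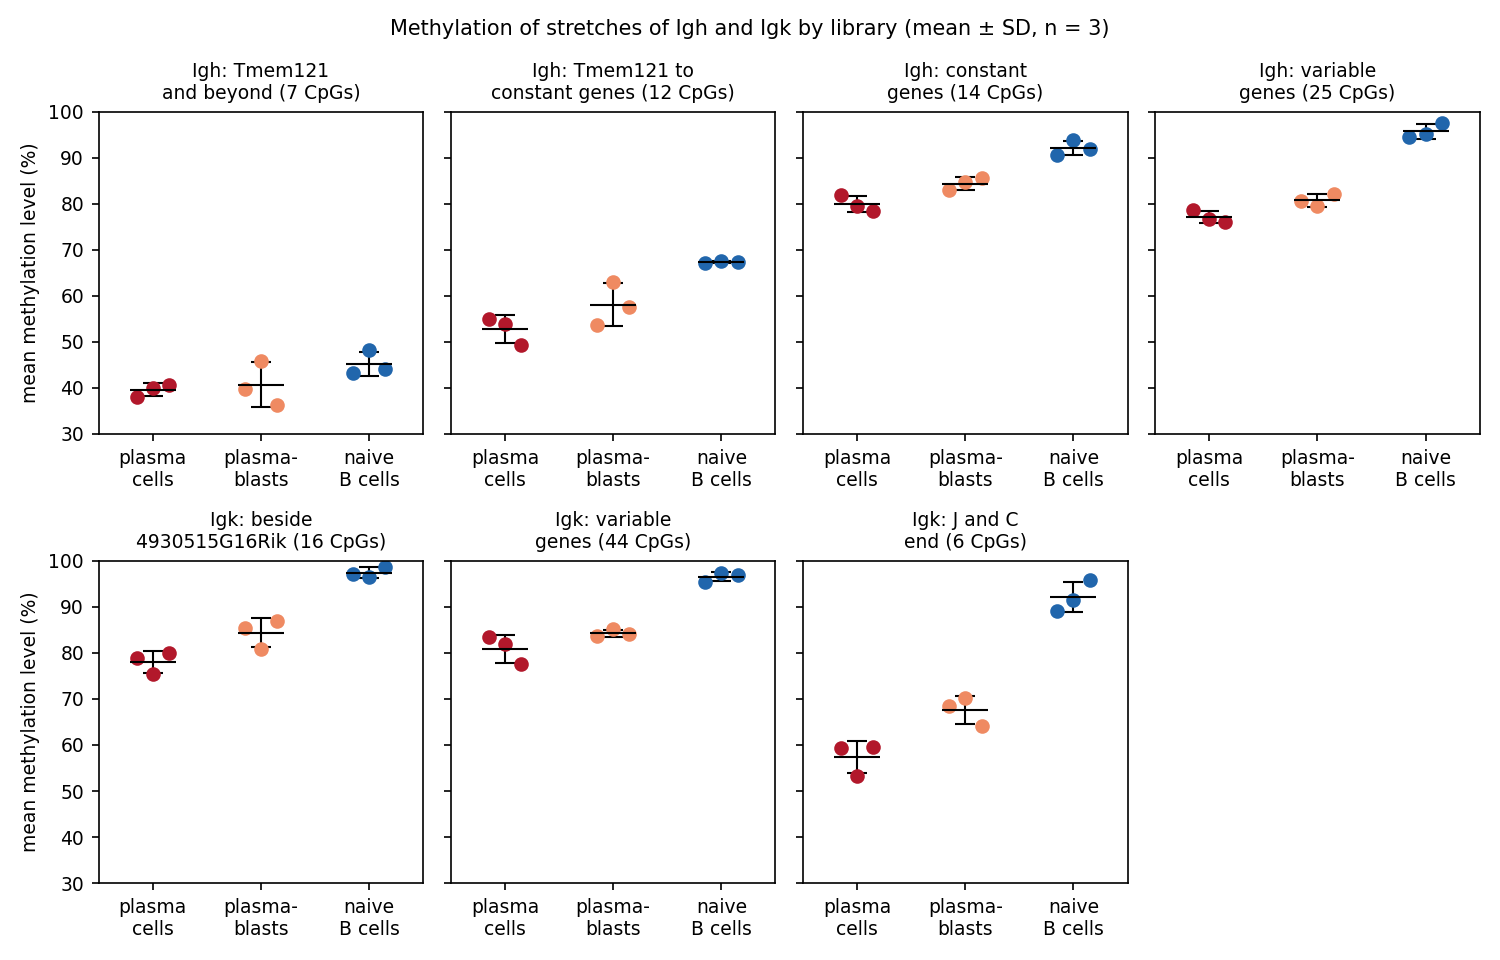
Mean methylation level (%) per library of the tested CpGs in 4 stretches of Igh and 3 of Igk, for plasma cells, plasmablasts and naive B cells. Points are libraries, and lines and bars are the mean ± SD of 3. The stretch with Tmem121 stays between 36.3% and 48.2% in every library. The stretch called the J and C end of Igk, which runs from 70541369 to 70681944, lies at 53.4% to 59.6% in plasma cells and 89.1% to 95.7% in naive B cells.

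The 3 runs with most CpGs in Igl stayed highly methylated. The run of 8 CpGs at 19069308 to 19069492 had mean pooled levels of 94.5% in plasma cells, 96.1% in plasmablasts and 95.2% in naive B cells. Summed over its CpGs there were 735, 488 and 619 reads. The run of 6 CpGs at 19203046 to 19203272 had 95.6% in plasma cells, 97.5% in plasmablasts and 98.5% in naive B cells, on 630, 635 and 460 reads summed likewise. The run of 5 CpGs at 19120695 to 19120848 had 86.6% in plasma cells, 86.9% in plasmablasts and 91.7% in naive B cells, the naive reads mostly from naive B cells 1. Plasma cells minus naive B cells was thus -0.66, -2.87 and -5.06 points in these 3 runs. Other parts of Igl, chosen after their values were seen and not tested as runs, were lower: the single CpG at 19174781 had 32.4% in plasma cells, 50% in plasmablasts and 70.3% in naive B cells, on 71, 56 and 37 reads. Of those 37 naive reads, 34 were from naive B cells 1, 3 from naive B cells 2 and 0 from naive B cells 3. The single CpG at 19054169 had 71.6% in plasma cells, 88.6% in plasmablasts and 96.6% in naive B cells, on 102, 70 and 59 reads. There naive B cells 1, 2 and 3 had 52, 3 and 4 reads. At both CpGs the naive level thus rests mostly on naive B cells 1. The 3 CpGs at 19204018 to 19204035 had 72.4% in plasma cells, 78.6% in plasmablasts and 95.6% in naive B cells. The 3 CpGs at 19134146 to 19134157 had 60.6% in plasma cells, 64.1% in plasmablasts and 76.8% in naive B cells. By comparison, the largest run of Igk, 10 CpGs at 70570406 to 70570644, had 82.9% in plasma cells, 83.1% in plasmablasts and 96.3% in naive B cells. The run of 7 in Igh at 114428647 to 114428982 had 74.7% in plasma cells, 79.7% in plasmablasts and 96.0% in naive B cells. The run of 7 in Igk at 70038121 to 70038407 had 83.1% in plasma cells, 88.6% in plasmablasts and 90.4% in naive B cells, and that at 70237172 to 70237341 had 63.7% in plasma cells, 67.5% in plasmablasts and 81.1% in naive B cells.

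Both called CpGs of Igl lay side by side. At 19133699 levels were 63.6%, 75.0% and 75.5% in plasma cells, 85.2%, 90.6% and 77.1% in plasmablasts, and 94.6%, 100% and 100% in naive B cells, a fall of 25.1 points in plasma cells (adjusted p = 7.85e-05). At 19133727 plasma cells fell by 21.8 points (adjusted p = 7.02e-05). The plasmablast values at these CpGs, -12.5 and -13.7 points, were under the 20 points required. The count of 2 became 4 without plasma cells 1 and 1 without plasma cells 3, where 19133727 was no longer called. The 5 CpGs on the Hira side had a median of 86.8% in plasma cells, 87.0% in plasmablasts and 95.2% in naive B cells, and none of the 2 tested was called.

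The authors' deposited table of CpGs differing between plasma cells and naive B cells listed 42 Igh CpGs (18.3%), 24 Igk CpGs (9.60%) and 4 Igl CpGs (7.84%), against 10.6% of the whole table, all lower in plasma cells by pooled reads. Their list for plasmablasts held 8 in Igh (3.49%), 4 in Igk (1.60%) and 0 in Igl, against 1.93%. All of the listed CpGs with at least 10 reads in every library were also called here: 16, 15 and 2 for plasma cells and 4, 3 and 0 for plasmablasts. The order of Igh and Igk by share listed is thus the reverse of that among tested CpGs, and the lists include CpGs of low depth.

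Read depth over the loci was examined because joining of segments and class switching remove DNA. Scaled to 1000000 reads over CpGs per library, Igh had 208, 199 and 181 in plasma cells, 187, 189 and 231 in plasmablasts, and 192, 173 and 182 in naive B cells. Igk had 213, 185 and 167 in plasma cells, 210, 189 and 240 in plasmablasts, and 271, 194 and 206 in naive B cells. Igl had 69.0, 47.5 and 51.3 in plasma cells, 59.1, 59.6 and 70.7 in plasmablasts, and 60.9, 41.1 and 40.9 in naive B cells. The groups overlapped in all of these. The 27 Igk CpGs of the J and C end had 0.706 times the depth in plasma cells that they had in naive B cells (20.4 ± 1.51 against 28.8 ± 6.71 scaled reads, SD, n = 3 each, exact permutation p = 0.1). All but 70681698 and 70681944 lie before the unnamed transcript, toward the V segments, so this ratio is not the depth of J and C themselves. The Tmem121 stretch had 1.30 times (35.6 ± 5.18 against 27.3 ± 2.01, exact permutation p = 0.1). These 2 of 11 stretches are given because they had the smallest p, unadjusted, and the Zfp386 stretch had a lower ratio, 0.527 (exact permutation p = 0.2). In plasmablasts the ratios for these Igk CpGs and the Tmem121 stretch were 0.776 and 1.07 (exact permutation p = 0.2 and 0.5). The Igh constant genes had 0.861 times the naive depth in plasma cells and 1.07 times in plasmablasts (exact permutation p = 0.2 and 0.6).

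Depth was tested with edgeR's quasi-likelihood test on reads summed over the CpGs of 20 kb windows. None of the 76 windows in the loci passed an adjusted p of 0.05 in any comparison, and DESeq2 also called 0. Genome-wide edgeR called 0% of 59976 windows for either LPS-induced group against naive B cells and 0.00167% for plasma cells against plasmablasts. At an unadjusted p under 0.05 there were 7 of 28 windows in Igh, 9 of 42 in Igk and 0 of 6 in Igl for plasma cells, and 0, 3 and 1 for plasmablasts, against naive B cells. For plasma cells against plasmablasts there were 4, 1 and 0. The share of all windows at an unadjusted p under 0.05 is not given here, so these counts cannot be read as an excess. Without naive B cells 1, edgeR called 48 of the 76 windows in plasma cells and 32 in plasmablasts against naive B cells, but then 58.2% and 35.9% of all windows were called, so the depth comparison rests on that library.

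Genes outside the loci that act on them were described from a list of 44 genes for V(D)J joining, class switching and antigen receptor signalling, of which 26 had at least 5 tested CpGs. Reads were summed per gene locus, and a call needed an adjusted p below 0.01 and a difference of 5 points. Of the 26, 15 were lower in plasma cells than in naive B cells (68.1% of all 14220 gene loci were), 6 were lower in plasmablasts (25.8% of all), and 0 differed between plasma cells and plasmablasts (0% of all). The median difference for plasma cells was -16.6 points, beside -15.7 over all gene loci, and for plasmablasts -6.42 beside -7.42. None was higher in either comparison with naive B cells (0.00703% of all gene loci were higher in plasmablasts and 0% in plasma cells). The counts rest on few libraries: the 6 became 3 without naive B cells 2 or 3 or any 1 plasmablast library, the 15 became 9 without plasma cells 2 or 3, and the 0 became 3 without naive B cells 1 and 8 without plasma cells 1.

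Blnk, an adaptor of antigen receptor signalling, had the largest difference in the list, with 27.2%, 20.3% and 15.1% in plasma cells, 28.3%, 34.3% and 27.0% in plasmablasts, and 62.5%, 65.9% and 60.2% in naive B cells. It fell by 42.9 and 33.2 points (adjusted p = 1.83e-05 and 4.42e-04). Cd79b, a signalling chain of the antigen receptor, fell by 27.5 points in plasma cells, Syk, a kinase of the same pathway, by 25.4, Tcf3, a transcription factor that acts on immunoglobulin enhancers, by 22.9, and Pax5, a B cell identity factor, by 21.9. Rag1, Rag2, Dntt, Cd79a, Igll1, Vpreb1 and Igj were not among the genes tested. For marker genes of B, T and myeloid cells, 4 of 5, 2 of 3 and 2 of 2 tested gene loci were lower in plasma cells than in naive B cells. Of all gene loci 68.1% were lower, and no test of a difference between the lists was made. Their median differences for plasma cells were -22.0, -15.0 and -20.1 points. In plasmablasts 2 of 5, 0 of 3 and 1 of 2 were lower, beside 25.8% of all gene loci.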

How the data were processed

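Per the labels' protocols, DNA of sorted spleen cells was cut with MspI, ligated to adaptors of 2 kinds, treated with bisulfite and amplified. Per the submitters' processing notes, Bismark, Bowtie2 and build mm9 were used, with tool versions and each library's adaptor not given in the sources used here. Deposited by the authors were counts of methylated and unmethylated reads per CpG and library, the level as a fraction of them, the closest transcript, and lists of differential CpGs.

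The members and lists were chosen with earlier results of these data known, and stretches within a locus were drawn after the deposited transcripts had been read. Named were closest genes with at least 3 CpGs, every called CpG where a locus had at most 10 and otherwise the 10 with the largest difference, the 3 runs with most CpGs per locus (neighbours within 200 bp), preset antigen receptor genes and the 5 list genes with the largest difference. A preset gene is not reported here. Other CpGs and runs were chosen after their values were seen. The quasi-binomial model took 356320 CpGs with at least 10 reads in every library. Its dispersion, at least 1, was moderated with limma 3.58.1 to 1.35 for all CpGs, so a CpG's own spread does not enter its p. P-values were Benjamini-Hochberg adjusted over all CpGs. Locus means had exact two-sided permutation tests over libraries. Depth was tested with edgeR 4.0.16 (at least 3 CpGs and a mean of 30 reads a window), with DESeq2 1.42.0 as an alternative. The procedures were tested on simulated data. Copies made by PCR are not independent molecules.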

Additional observations from a re-analysis of the deposited data

How the results depend on the processing

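Counts of called CpGs changed with the settings. With a minimum of 20 reads they were 3 in Igh and 4 in Igk for plasmablasts against naive B cells. For plasma cells against naive B cells they were then 5, 7 and 0 in Igh, Igk and Igl. Fewer CpGs were tested there by construction. With a minimum of 5 reads, where more CpGs were tested, 34 Igh CpGs were called in plasma cells. With the library set as a term, 8 in Igh and 13 in Igk were called in plasma cells; the cause was not tested. With the dispersion's floor of 1 set after moderation, chosen after seeing the data, 8 in Igk were called in plasmablasts. Leaving out single libraries gave 6 to 9 (Igh) and 10 to 14 (Igk) in plasmablasts, and 15 to 21 (Igh), 19 to 27 (Igk) and 1 to 4 (Igl) in plasma cells. The share of all CpGs called under each of these settings is not given here. A change in the loci therefore cannot be told from a change over all CpGs.

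Igh relative to other CpGs in plasma cells against naive B cells turned from -2.52 to 1.31 points with only intergenic CpGs as the rest and to 1.06 with only CpGs that started at 80% or higher. Igl for plasma cells against plasmablasts, -0.0111, became 0.584 and 0.922 under these settings and ran from -1.44 to 1.89 with a library left out; for Igk the same value ran from -0.407 to 0.692. The mean of Igl in plasmablasts against naive B cells, -5.54, became 0.178 over the 3 CpGs with at least 20 reads. The cause was not tested. Single CpGs that changed sign with a library left out did so for plasma cells against plasmablasts: 116016321 (-0.0644 to 15.2), 67513977 (-6.33 to 1.04), 70566073 (-10.3 to 0.115) and 116656666 (-4.65 to 1.21).

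Depth windows called, over left-out libraries, ran from 0 to 19, 0 to 25 and 0 to 4 (Igh, Igk, Igl) for plasma cells and 0 to 10, 0 to 18 and 0 to 4 for plasmablasts against naive B cells, and 0 to 1, 0 to 1 and 0 for plasma cells against plasmablasts, the upper values all without naive B cells 1. Adding the library set to the depth model gave 10, 18 and 4 for plasmablasts against naive B cells. For plasma cells against plasmablasts it gave 5, 16 and 3. Of all 59976 windows, that model called 8681 lower and 12662 higher in the first comparison. In the second it called 7712 lower and 3210 higher. Many windows were thus called across the genome, and whether the loci exceeded this background was not tested. Called gene loci of the list ran from 9 to 16, 3 to 9 and 0 to 8 over left-out libraries in plasma cells against naive B cells, plasmablasts against naive B cells, and plasma cells against plasmablasts. The replicate block left 3 gene loci of the list in plasmablasts, where 6 were called without it, and 8, 13 and 0 CpGs in plasmablasts and 18, 25 and 2 in plasma cells against naive B cells; same-numbered deviations correlated between -0.0287 and 0.0302.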
